A study of Caenorhabditis elegans with 10 samples.

Results

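The heat shock and DnaJ chaperone genes of C. elegans were taken as the protein-coding genes whose symbol in the WBcel235 gene table starts with hsp- or dnj-, with sip-1 added. The rule used names alone and no measured value. It found 54 of 19971 nuclear protein-coding genes: 24 hsp genes, 29 dnj genes and sip-1. By role they were described as 9 genes of the HSP60, HSP70, HSP90 and HSP110 classes, 16 small heat shock protein genes (among them 4 hsp-12 and 8 hsp-16 genes) and 29 DnaJ genes.

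Chaperones help other proteins to fold and keep them from clumping. HSP70 proteins bind and release unfolded stretches in a cycle driven by ATP, DnaJ proteins (HSP40) bring clients to HSP70 and trigger its ATPase, HSP110 exchanges its nucleotide, HSP90 matures signalling proteins, and small heat shock proteins hold unfolding proteins without using ATP. In the worm, the factor HSF-1 drives the heat-inducible genes, while the unfolded protein responses of the endoplasmic reticulum (ER) and of mitochondria drive the chaperones of those compartments. The adult intestine secretes large amounts of yolk protein, which is folded in the ER.

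Binding was measured by chromatin immunoprecipitation and sequencing (ChIP-seq) in whole day 1 adults for CEH-60 (a PBX-family homeodomain protein), UNC-62 (a MEIS-family homeodomain protein that can pair with PBX proteins) and PQM-1 (a zinc finger protein of the intestine). HA-tagged CEH-60 was recovered from strain DLS395, genotype ceh-60(rhd116), by 2 anti-HA antibodies: 3F10, used for a pair of libraries called replicates 1 and 2, and mIgG1, used for 1 library. DLS396, genotype ceh-60(rhd116); gaIs285, gave a CEH-60 list (3F10) and an UNC-62 list (anti-GFP). FLAG-tagged PQM-1 came from OP201, genotype unc-119(tm4063); wgIs201, and from DLS422, genotype ceh-60(ok1485); wgIs201, and CEH-60 with 3F10 also came from DLS435, genotype pqm-1(ok485); ceh-60(rhd116). UNC-62 and PQM-1 were thus recovered through transgenes, and the labels name no mutation of the native pqm-1 in OP201 or DLS422. Crosslinking took 30 min in 2% formaldehyde (long crosslinking) for both DLS396 libraries, replicate 1 and the mIgG1 library, and 5 min in 1% (short crosslinking) for DLS435, replicate 2 and both PQM-1 libraries. Shearing and library kits differed along with it. Worms for the libraries with long crosslinking were grown at 20 °C for 72 h. Growth temperature and time are not known here for the libraries with short crosslinking. The 2 input samples of the 10 were not analysed here.

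The lists held from 2048 (CEH-60 in DLS435) to 9010 peaks (CEH-60 replicate 1), and read depth is unknown. A gene counted as bound if some peak had its summit at either gene end, at most 1000 bp outside or 200 bp inside, since strand was not used here. Fold is the authors' value for a peak summit over its local background, and it is read here within a list and not between lists. Apart from CEH-60 with 3F10 in DLS395, whose 2 libraries differ in crosslinking, each group had 1 library, so differences between lists have no replicate check and no test was made. Coordinates are those of the deposited lists, counted from 1, with a genome build not given in the sources used here. In whole animals, binding in fewer cells and weaker binding per cell cannot be told apart.

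Of the 54 chaperone genes, 24 were bound in 1 or more lists (44.4%), against 29.8% of all protein-coding genes, and 30 were bound in none. The share of bound members stood above the share of all genes in each of the 8 lists, by little in some, and fell below it in DLS435 with a window of 500 bp and in DLS422 under 2 other settings. CEH-60 bound 19 members in replicate 1 (35.2%, against 25.2% of all genes), 11 with mIgG1 (20.4% against 12.8%), 18 in DLS396 (33.3% against 25.5%), 10 in replicate 2 (18.5% against 9.66%) and 4 in DLS435 (7.41% against 5.44%). UNC-62 bound 5 members (9.26% against 6.18%). PQM-1 bound 12 in OP201 (22.2% against 16.9%) and 8 in DLS422 (14.8% against 13.4%). In DLS422 and DLS435 the share of members was thus close to that of all genes.

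**Figure D1:**
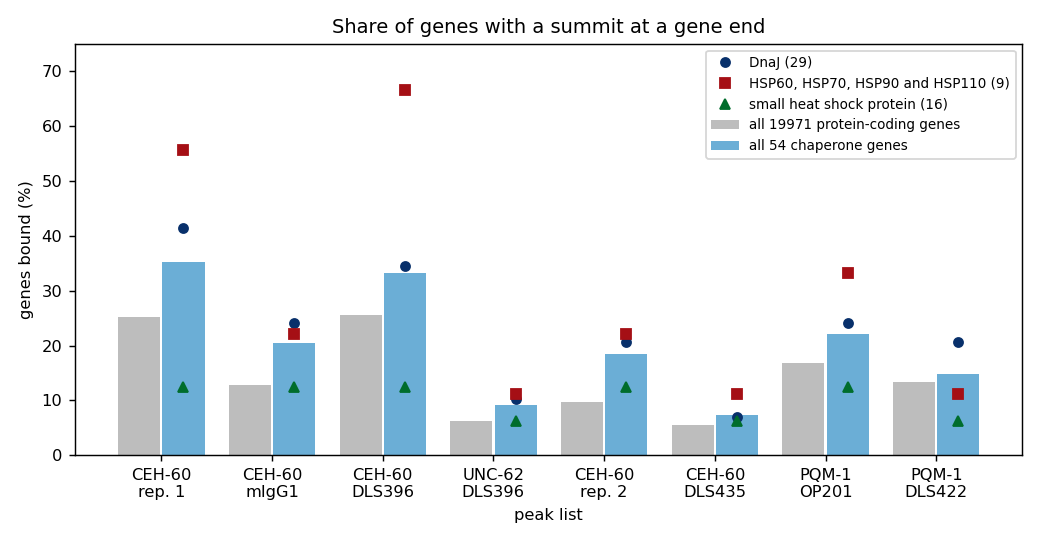
Percent of genes bound (y axis) in each of the 8 peak lists (x axis), for all protein-coding genes (grey bars), all 54 chaperone genes (blue bars) and the 3 classes (points, class size in brackets). The HSP60, HSP70, HSP90 and HSP110 classes reached 66.7% in the CEH-60 list of DLS396. Small heat shock protein genes stayed at 12.5% or below in every list, beside 5.44% to 25.5% of all genes.

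The classes had different shares, a difference that was not tested. Of the 9 genes of the HSP60, HSP70, HSP90 and HSP110 classes, 7 were bound in some list (77.8%, against 29.8% of all genes). CEH-60 bound 5 of them in replicate 1 (55.6% against 25.2%), 6 in DLS396 (66.7% against 25.5%) and 2 in replicate 2 (22.2% against 9.66%). Among 29 DnaJ genes 13 were bound in some list (44.8% against 29.8%), 12 of them in replicate 1 (41.4% against 25.2%) and 7 in the OP201 PQM-1 list (24.1% against 16.9%). Among 16 small heat shock protein genes 4 were bound in some list, a share not far below the 29.8% of all genes. No list bound more than 2. Their share was above that of all genes in replicate 2 (12.5% against 9.66%). With 1 gene bound, it was just above for UNC-62 (6.18% of all genes) and in DLS435 (5.44%). With mIgG1 the shares were about level (12.5% against 12.8%). The class was below all genes in replicate 1, DLS396 and OP201 (12.5% against 25.2%, 25.5% and 16.9%) and in DLS422 (1 gene, against 13.4%). In the 3 CEH-60 lists with long crosslinking, best peaks of bound members ran from below the lower to above the upper quartile of all bound genes. For UNC-62 and in DLS435 no member reached the upper quartile (highest 4.60 against 5.39, and 2.39 against 2.66). In replicate 2 the highest, 2.86, stood about at it. The median fold of the members' best peak was 4.69 (range 2.14 to 11.35) in replicate 1, beside 4.89 over all 5030 bound genes. In OP201 it was 2.19 (1.86 to 4.24) beside 2.56, just below the lower quartile of 2.21.

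**Figure D2:**
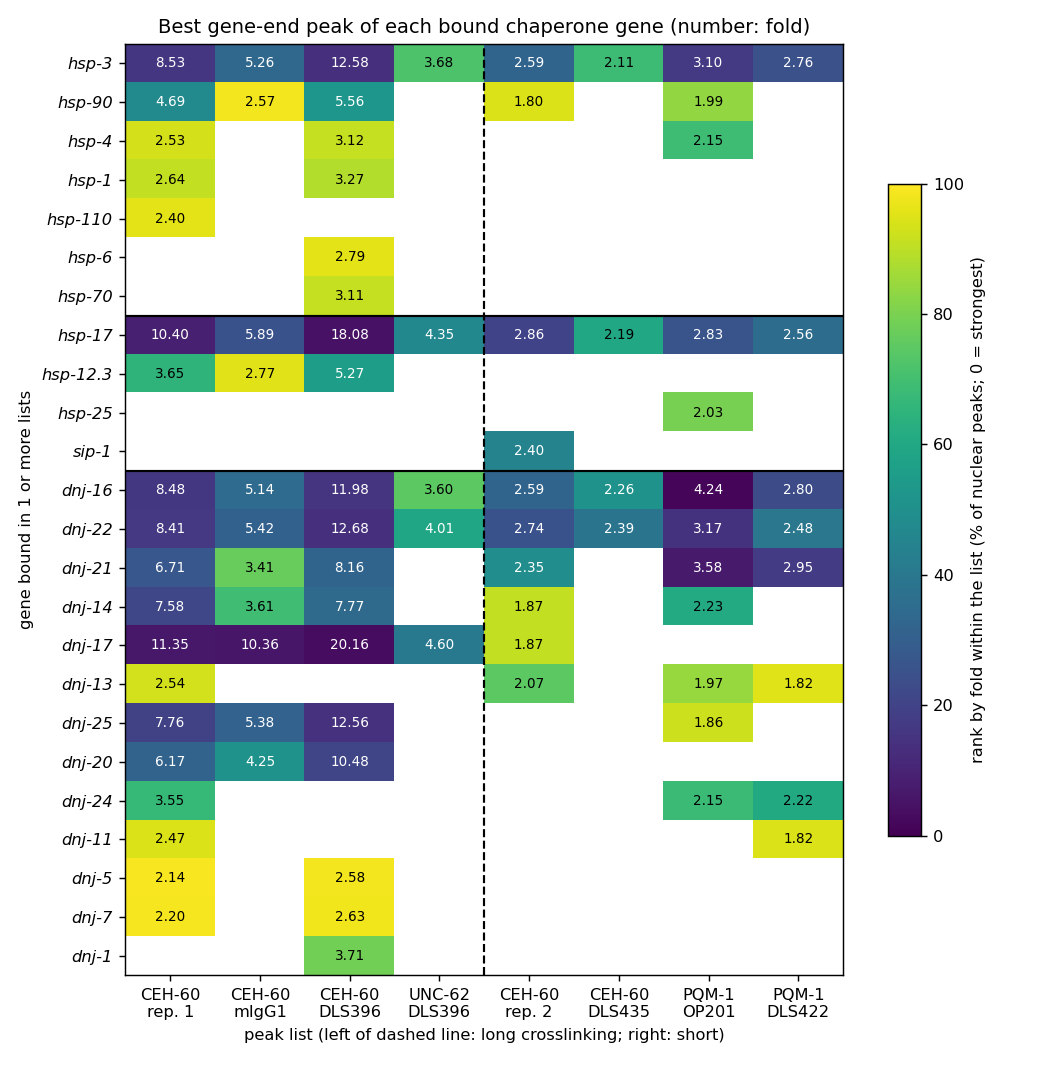
Chaperone genes bound in 1 or more lists (rows, by class) in the 8 peak lists (columns). Each filled cell gives the fold of the gene's best gene-end peak, and colour gives that peak's rank by fold within its list as a percent of nuclear peaks, with dark colours for strong peaks; blank cells are not bound. hsp-3, hsp-17, dnj-16 and dnj-22 are filled in every column.

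Binding in every list was seen at 4 members (7.41%, against 3.01% of all genes): hsp-3, hsp-17, dnj-16 and dnj-22. With a window of 500 bp, 2 members (hsp-3 and dnj-16) were bound in all 8 lists, hsp-17 in 6 and dnj-22 in 0. With dnj-21 added, 5 members (9.26%, against 7.61%) were bound in 6 or more lists. These 5 genes come from all 3 classes.

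hsp-3 encodes an ER-resident HSP70 of the BiP type, the chaperone that receives secretory proteins as they enter the ER. For CEH-60 its best peak had a fold of 12.58 in DLS396, 8.53 in replicate 1, 5.26 with mIgG1, 2.59 in replicate 2 and 2.11 in DLS435. The fold was 3.68 for UNC-62, and for PQM-1 it was 3.10 in OP201 and 2.76 in DLS422. Within their lists these were strong peaks for CEH-60 replicate 1 (rank 1428 of 9008, X 6091803 to 6092836) and OP201 (1006 of 6001), and weak ones for UNC-62 (1479 of 2051) and DLS435 (1405 of 2048). In all 8 lists a summit lay 313 to 433 bp outside the gene, and these summits spread over 120 bp. In DLS422, without ceh-60, the PQM-1 peak at that shared position had a fold of 1.94, and the best peak there (2.76) lay 886 bp outside the gene, where CEH-60 in DLS396 had a weak peak as well (2.72). In OP201 a single PQM-1 peak of 1033 bp covered both positions, so 1 summit there does not show that the outer position was free.

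hsp-4 encodes the other BiP protein of the worm, which is induced strongly by ER stress. It was bound in 3 lists, with a fold of 2.53 in CEH-60 replicate 1, 3.12 in DLS396 and 2.15 for PQM-1 in OP201. These peaks ranked low within each list, at 8442 of 9008, 8193 of 8991 and 4143 of 6001, and their summits lay within 76 bp of each other and also bound the transporter gene haf-2. The BiP genes thus differed in their peaks, with hsp-3 bound in all lists and hsp-4 in 3.

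Among the cytosolic chaperones, hsp-90, the HSP90 gene, was bound in 5 lists. For CEH-60 its folds were 5.56 in DLS396, 4.69 in replicate 1, 2.57 with mIgG1 and 1.80 in replicate 2, and PQM-1 had 1.99 in OP201. Except in replicate 1 and DLS396, where it stood near the middle of the list, the peak was weak, at rank 4359 of 4429 with mIgG1. The constitutive HSP70 gene hsp-1 was bound at 2.64 in replicate 1 and 3.27 in DLS396, hsp-110, which encodes the exchange factor of HSP70, at 2.40 in replicate 1 alone, and the heat-inducible HSP70 gene hsp-70 at 3.11 in DLS396 alone. These were among the weaker peaks, since 88.4% of the list or more ranked above each of them. Replicate 2 had no end peak at hsp-1. It had peaks inside hsp-1 (up to 2.30) and inside hsp-90 (up to 2.35), away from the ends and so not counted. Of the mitochondrial chaperones, hsp-6 (mortalin) had a peak of 2.79 in DLS396 alone, hsp-60 had none at an end and 1 peak of 2.64 inside the gene in DLS396, and hsp-75, which encodes a TRAP1-type HSP90, had no summit within 11002 bp in any list.

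Among the small heat shock protein genes, hsp-17 carried the strong peaks. For CEH-60 the folds were 18.08 in DLS396, 10.40 in replicate 1, 5.89 with mIgG1, 2.86 in replicate 2 and 2.19 in DLS435. For UNC-62 the fold was 4.35, and for PQM-1 it was 2.83 in OP201 and 2.56 in DLS422. The peak ranked 455 of 8991 in DLS396 and 809 of 9008 in replicate 1. The best summits lay at either of a pair of positions. In the 4 lists with long crosslinking it lay 300 to 360 bp outside the gene, at V 8384439 to 8384499, and in the 4 lists with short crosslinking 843 to 933 bp outside it on the same side, at V 8383866 to 8383956. The mIgG1 list had separate peaks at both positions (5.89 and 4.97). In 5 lists a single peak spanned both positions, in replicate 1 (V 8383451 to 8386795), DLS396 (V 8383482 to 8385553), replicate 2 (V 8383503 to 8385256), OP201 (V 8383252 to 8386929) and DLS422 (V 8383203 to 8385572). A peak has 1 summit, so its place does not show that the other position was free, and no change of position is drawn from it. On the other side of the gene, 357 to 438 bp outside it, 4 lists had a further summit, of 10.15 in DLS396, 3.54 with mIgG1, 2.74 in replicate 2 and 2.49 for PQM-1 in DLS422. The single peaks of replicate 1 and OP201 also covered this position. Their lack of a summit there does not show that it was free. The best peaks also bound F52E1.5, and those at the farther position F52E1.14.

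The other bound small heat shock protein genes had few peaks. hsp-12.3 was bound by CEH-60 in the 3 lists with long crosslinking other than UNC-62, at 3.65 in replicate 1, 2.77 with mIgG1 and 5.27 in DLS396, with summits within 95 bp. The same summits lay 1602 to 1697 bp from hsp-12.6 and so outside the limit. sip-1, a small heat shock protein gene, was bound in CEH-60 replicate 2 alone. That peak had a fold of 2.40, was 600 bp long (III 10506018 to 10506617) and had its summit 33 bp inside sip-1, where it also bound taf-11.3, urm-1 and sly-1. In replicate 1 the nearest summit lay 3363 bp from sip-1 (9.54-fold), in DLS435 26790 bp away and in OP201 19575 bp away. hsp-25 was bound by PQM-1 in OP201 alone (2.03), 828 bp outside the gene. CEH-60 had summits at 1612 bp (4.19 in replicate 1) and 1640 bp (4.61 in DLS396) from hsp-25, and PQM-1 had them there in both strains, at 1636 bp (2.75 in OP201) and 1669 bp (2.11 in DLS422). What DLS422 lacked was thus the nearer PQM-1 peak.

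None of the 8 hsp-16 genes, a family that includes the classical heat-inducible small heat shock genes, was bound in any list. Of all genes, 70.2% were bound in none. The nearest summit to hsp-16.1 was that of a PQM-1 peak in OP201 (1.96), 1241 bp away, and DLS422 had a peak at the same place (2.38, 1249 bp away). With the limit at 2000 bp, hsp-16.1 would be bound in these 2 lists. Summits of any list lay 2079 bp or more from hsp-16.48, hsp-16.49 and hsp-16.11, 4332 bp or more from hsp-16.20 and hsp-16.21, and 31174 bp or more from hsp-16.2 and hsp-16.41. hsp-16.1 with hsp-16.48 and hsp-16.11 with hsp-16.49 form an inverted repeat of near-identical sequence, and the treatment of reads that match several places was not given in the sources used here. A missing peak there is uncertain. hsp-12.1, hsp-12.2 and hsp-43 were not bound either, with nearest summits 4213, 4510 and 4881 bp away.

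Among the DnaJ genes, dnj-17 had the highest gene-end folds of any member in the 3 CEH-60 lists with long crosslinking. They were 11.35 in replicate 1 (rank 594 of 9008, III 13389578 to 13390683), 10.36 with mIgG1 (271 of 4429) and 20.16 in DLS396 (295 of 8991), with 4.60 for UNC-62. In replicate 2 the peak at the same position had a fold of 1.87 and ranked 3116 of 3430, and dnj-17 was not bound in DLS435 or either PQM-1 list. The nearest summits there lay 1332 bp (DLS435) and 1359 bp (OP201) from that of replicate 2. They belong to a farther position, 1958 to 2047 bp outside dnj-17 and so beyond the limit, with a summit in all 8 lists. Folds there were 8.03 in replicate 1, 3.01 in replicate 2, 2.36 in DLS435, 3.65 in OP201 and 3.36 in DLS422. The 5 counted summits spread over 18 bp, 667 to 685 bp outside the gene, and bound no other gene. The counted peak, near the top of the lists with long crosslinking, was thus near the bottom of that of replicate 2.

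dnj-16 and dnj-22 were bound throughout. For CEH-60 the dnj-16 peak had folds of 11.98 in DLS396, 8.48 in replicate 1, 5.14 with mIgG1, 2.59 in replicate 2 and 2.26 in DLS435. Its fold was 3.60 for UNC-62, and for PQM-1 it was 4.24 in OP201 and 2.80 in DLS422. In OP201 it ranked 96 of 6001 (III 4193442 to 4194126), which placed it in the top 1.60% of the list. In all 8 lists this peak also bound xbp-1, which encodes a transcription factor of the ER unfolded protein response. At dnj-22 the CEH-60 folds were 12.68 in DLS396, 8.41 in replicate 1, 5.42 with mIgG1, 2.74 in replicate 2 and 2.39 in DLS435. UNC-62 had 4.01, and PQM-1 had 3.17 in OP201 and 2.48 in DLS422, with all summits within 54 bp of each other, 583 to 637 bp outside the gene and shared with T23B12.6.

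dnj-21, which encodes a J protein of mitochondrial protein import, was bound in 6 lists, all but UNC-62 and DLS435. Its folds were 6.71 in replicate 1, 3.41 with mIgG1, 8.16 in DLS396, 2.35 in replicate 2, 3.58 for PQM-1 in OP201 (rank 430 of 6001) and 2.95 in DLS422 (877 of 5020). PQM-1 peaks here ranked high in both strains, and the mIgG1 peak ranked low (3395 of 4429). In all 6 lists the dnj-21 peak also bound aprt-1. dnj-14, the gene of the cysteine string protein of synaptic vesicles, was bound at 7.58 in replicate 1, 3.61 with mIgG1, 7.77 in DLS396, 1.87 in replicate 2 and 2.23 for PQM-1 in OP201, in summits within 19 bp that also bound the neuroligin-like gene glit-1.

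dnj-25, the auxilin gene of clathrin uncoating, and dnj-20, which encodes an ER-resident DnaJ protein, had gene-end peaks mainly with long crosslinking. dnj-25 stood at 7.76 in replicate 1, 5.38 with mIgG1, 12.56 in DLS396 and 1.86 for PQM-1 in OP201 (rank 5549 of 6001). At its ends dnj-20 stood at 6.17 in replicate 1, 4.25 with mIgG1 and 10.48 in DLS396. Neither was bound at an end in replicate 2.

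Inside dnj-20, away from both ends, all 8 lists had summits, with higher folds than at its ends in the 3 lists that bound an end. The highest CEH-60 fold inside the gene was 26.33 in DLS396 (II 9618591 to 9623936), 18.26 with mIgG1, 16.88 in replicate 1 (II 9618712 to 9623509), 3.92 in replicate 2 and 3.04 in DLS435. In the 3 lists with long crosslinking these exceeded the gene-end folds of dnj-17. UNC-62 reached 12.38 there, and PQM-1 2.55 in OP201 and 2.25 in DLS422. The CEH-60 and UNC-62 summits of these peaks lay at II 9622262 to 9622291.

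dnj-13, which encodes a cytosolic DnaJ protein that works with HSP-1, had weak peaks at both ends. On the lower-coordinate side replicate 1 (2.54) and replicate 2 (1.93) had summits 73 bp apart, and on the other side replicate 2 (2.07), PQM-1 in OP201 (1.97) and PQM-1 in DLS422 (1.82) had summits within 53 bp. The remaining bound DnaJ genes had gene-end peaks at the weak end of their lists. These genes were dnj-11 (2.47 in replicate 1 and 1.82 for PQM-1 in DLS422), dnj-5 (2.14 and 2.58 in replicate 1 and DLS396), dnj-7, an ER-resident co-chaperone gene (2.20 and 2.63 in the same lists), and dnj-1 (3.71 in DLS396). Stronger peaks lay beyond the limit in replicate 1, with summits 2078 bp from dnj-11 (8.84), 2206 bp from dnj-7 (11.24) and 1979 bp from dnj-1 (5.27).

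dnj-24 shows how the window decides a call. It was bound at 3.55 in replicate 1, 2.15 for PQM-1 in OP201 and 2.22 in DLS422, with the replicate 1 summit 927 bp outside the gene. A stronger CEH-60 peak lay farther out, 10.29-fold at III 5420769 to 5421778 in replicate 1, and with the limit at 2000 bp dnj-24 was bound in all 8 lists. In replicate 1, dnj-5 (792 bp) and dnj-24 were the members with nearest summits just inside the limit of 1000 bp, and hsp-25 (1612 bp) and hsp-12.6 (1684 bp) were just outside it. dnj-9 was never bound at an end, yet it had summits inside the gene in 6 lists. In replicate 1 the strongest of them had a fold of 5.59 (II 4857070 to 4857506). dnj-8 had internal summits in 3 lists (2.69 in replicate 1), and 24 of the 30 members never bound had no summit within 2000 bp in any list. The same count was not made for the other genes never bound, so it is not a result about the members.

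**Figure D3:**
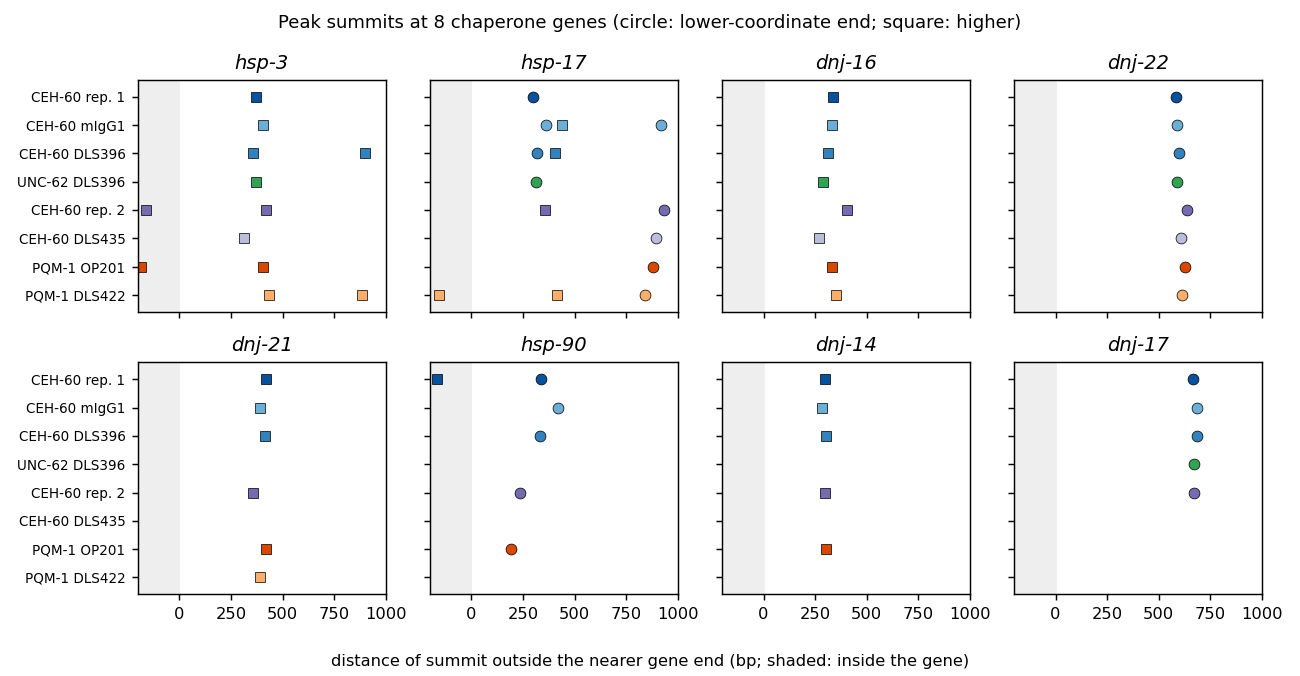
Distance of every qualifying peak summit outside the nearer gene end (x axis, bp, with positions inside the gene shaded) in each of the 8 lists (y axis) for the 8 chaperone genes bound in most lists. Circles mark the lower-coordinate end and squares the higher. Summits line up across lists at dnj-22 (583 to 637 bp) and dnj-17 (667 to 685 bp), and hsp-17 has summits at 300 to 360 bp and at 843 to 933 bp.

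Many of these peaks were shared with a neighbouring gene. In replicate 1 the best peak of 14 of 19 bound members also bound another protein-coding gene, and in OP201 that of 9 of 12. The same share over all bound genes was not counted, so such sharing is not shown to be particular to the members. The members lie closer to their neighbours than most genes, with a median summed distance to both neighbours of 1019 bp (675 bp for DnaJ genes), against 2093 bp over all genes. Which gene of a shared peak the binding belongs to was not tested.

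The CEH-60 replicates from DLS395 address how far binding was recovered again under other crosslinking. Of the 19 members bound in replicate 1, 9 were bound in replicate 2 (47.4%, against 36.8% of all genes bound in replicate 1), and of the 10 in replicate 2, 9 were bound in replicate 1 (against 96.0% of all genes), the exception being sip-1. The 9 members in both had replicate 1 folds of 2.54 to 11.35 (median 8.41), and the 10 in replicate 1 alone 2.14 to 7.76 (median 2.59). These ranges overlapped. For all genes the medians were 8.06 and 3.83.

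With mIgG1, 11 of the 19 members of replicate 1 were bound (57.9%, against 49.0% of all genes), and each of the 11 mIgG1 members was bound in replicate 1 (against 96.4% of all genes). The 8 members bound with 3F10 alone (dnj-5, dnj-7, dnj-11, dnj-13, dnj-24, hsp-1, hsp-4 and hsp-110) had folds of 2.14 to 3.55 there, all below the 3.65 to 11.35 of members bound with both antibodies. The weak peaks at the cytosolic HSP70 and HSP110 genes and at hsp-4 thus rest on 3F10 libraries and, for hsp-4, on PQM-1 as well.

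In DLS396, with the unc-62 transgene, CEH-60 bound 15 of the 19 members of DLS395 replicate 1 (78.9%, against 91.6% of all genes). Of the 18 DLS396 members, those 15 were bound in DLS395 (83.3%, against 90.4%). Of the members that differed, dnj-11, dnj-13, dnj-24 and hsp-110 were bound in DLS395 alone (2.40 to 3.55), and dnj-1 (3.71), hsp-70 (3.11) and hsp-6 (2.79) in DLS396 alone. The dnj-24 summit of DLS395 was covered by a DLS396 peak of 15.49 (III 5420260 to 5421760) whose summit lay beyond the limit, so the call differed there and not the presence of a peak. Summits of the 15 shared members lay a median of 14 bp apart.

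UNC-62 and CEH-60 from DLS396 show where both proteins were found. All 5 UNC-62 members were bound by CEH-60 (against 96.6% of all genes), and 5 of 18 CEH-60 members were bound by UNC-62 (27.8%, against 23.4%). These 5 were dnj-17, hsp-17, dnj-22, hsp-3 and dnj-16, with UNC-62 folds of 4.60, 4.35, 4.01, 3.68 and 3.60 and summits 9 to 26 bp from those of CEH-60. They were 5 of the 6 members of highest CEH-60 fold (11.98 to 20.16), and dnj-25 (12.56) was the sixth, with the nearest UNC-62 summit 16632 bp away. Of all 731 genes with a CEH-60 fold in that range, which the bound members themselves set, 85.0% were bound by UNC-62.

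PQM-1 was recovered with and without ceh-60. Of the 12 members bound in OP201, 7 were bound in DLS422 (58.3%, against 71.3% of all genes): dnj-13, dnj-16, dnj-21, dnj-22, dnj-24, hsp-3 and hsp-17. The 5 bound in OP201 alone were dnj-14 (2.23), hsp-4 (2.15), hsp-25 (2.03), hsp-90 (1.99) and dnj-25 (1.86), all below the median of 2.56 over genes bound in OP201. Their folds overlapped with those of dnj-24 (2.15) and dnj-13 (1.97), which were bound in both. Of all 779 genes with an OP201 fold from 1.86 to 2.23, 57.5% were not bound in DLS422. That range was set by the 5 members bound in OP201 alone, and it held 7 members, of which 2 were bound in DLS422. Why the 5 had no gene-end peak in DLS422 was not tested. In the other direction 7 of 8 DLS422 members were bound in OP201 (87.5%, against 89.8%), and dnj-11 (1.82) was in DLS422 alone.

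CEH-60 was likewise recovered with and without pqm-1, with short crosslinking. Of the 10 members bound in replicate 2, 4 were bound in DLS435 (40.0%, against 53.3% of all genes), and all 4 DLS435 members were bound in replicate 2 (against 94.6%). hsp-17, dnj-22, dnj-16 and hsp-3, which DLS435 also bound, had folds of 2.59 to 2.86 in replicate 2, and dnj-13, dnj-14, dnj-17, dnj-21, hsp-90 and sip-1, which it did not bind, 1.80 to 2.40. These ranges did not overlap. Of all 881 genes with a replicate 2 fold from 1.80 to 2.40, 70.9% were not bound in DLS435. That range was set by the 6 members not bound in DLS435 and held no other member. The DLS435 list held 2048 peaks against 3430 in replicate 2. Why these members had no gene-end peak in DLS435 was not tested.

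CEH-60 replicate 2 and PQM-1 in OP201, both with short crosslinking, bound 8 members in common, which were 80.0% of the CEH-60 members (against 86.7% of all genes) and 66.7% of the PQM-1 members (against 49.5%). sip-1 and dnj-17 were bound by CEH-60 alone, and dnj-24, dnj-25, hsp-4 and hsp-25 by PQM-1 alone. At dnj-17 a PQM-1 peak (3.65) lay beyond the limit, and at dnj-24 a CEH-60 peak did (2.39). The summits of the 8 shared members lay 4 to 74 bp apart.

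**Figure D4:**
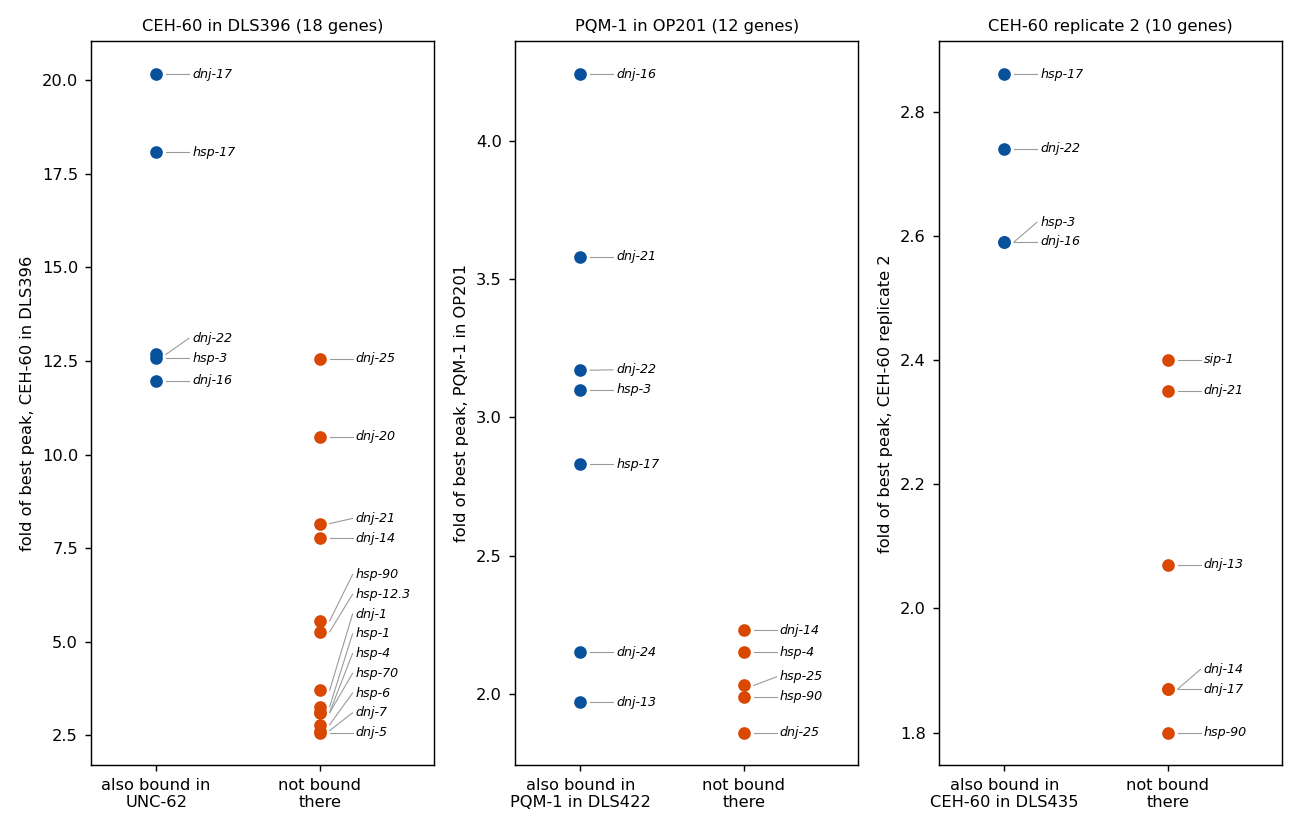
Fold of the best peak (y axis) of each chaperone gene bound by CEH-60 in DLS396 (left), PQM-1 in OP201 (middle) and CEH-60 in replicate 2 (right), split by whether UNC-62, PQM-1 in DLS422 or CEH-60 in DLS435 also bound the gene (x axis). The y axes do not start at 0. The members that DLS435 also bound lie at 2.59 to 2.86 and the others at 1.80 to 2.40.

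Other genes of protein folding were counted from 5 lists with 51 genes in all. HSF-1 and its regulators (hsf-1, hsb-1, ddl-1, ddl-2 and hpk-1) were bound in 0 of 5 cases in each of the 8 lists. The lists bound 5.44% to 25.5% of all genes, and 70.2% of all genes were bound in none. With 5 genes, a count of 0 is not far from these shares. Genes of ER folding and the ER unfolded protein response stood at 11 of 14 in CEH-60 replicate 1 and in DLS396, beside 25.2% and 25.5% of all genes, and at 7 of 14 with mIgG1 (12.8% of all genes) and for PQM-1 in OP201 (16.9%). They stood at 4 of 14 in replicate 2 (9.66%) and in DLS422 (13.4%), at 3 of 14 for UNC-62 (6.18%) and at 2 of 14 in DLS435 (5.44%). xbp-1, through the peak it shares with dnj-16, and stc-1, which encodes an HSP70-like protein of the ER, were bound in all 8 lists, stc-1 at 10.75 in replicate 1 and 16.48 in DLS396. The protein disulfide isomerase gene pdi-2 (8.30 in replicate 1) and pek-1 (6.33), which encodes the PERK kinase, were bound in 6. Calreticulin (crt-1) stood at 5.80 in replicate 1 and was bound in 4 lists, and the sensor genes ire-1 and atf-6 stood at 3.82 and 4.91 there.

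In the lists of the cytosol the counts in replicate 1 and DLS396 were near the shares of all genes (25.2% and 25.5%). Co-chaperones stood at 2 of 11 in replicate 1 and 3 of 11 in DLS396, where unc-23, a BAG-domain gene, had a fold of 10.23 and was the only one of the list bound by PQM-1 (2.49 in OP201 and 3.19 in DLS422). Chaperonin and prefoldin genes stood at 4 of 14 in replicate 1 and in DLS396, with folds in replicate 1 of 2.31 (cct-5) to 3.06 (cct-7). They stood at 2 of 14 in OP201 (16.9% of all genes) and 0 of 14 in the other 5 lists (5.44% to 13.4%). Of the 7 genes of the mitochondrial unfolded protein response, atfs-1, its transcription factor, was bound in 4 lists (4.74 in replicate 1 and 3.26 for PQM-1 in OP201). The other 6 were bound in none, as were 70.2% of all genes.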

How the data were processed

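ChIP-seq peak lists, 1 for each of 8 immunoprecipitated samples of 10 samples, were used as deposited, and the 2 inputs were not analysed here. Per the submitters' processing notes, the authors used Bowtie2, SAMtools, MACS2 and deepTools. Not given in the sources used here were versions, genome build, control libraries, duplicate removal and the placing of multiply matching reads. The deposited fold is a ratio of summit signal over local background; the deposited −log10 p-value and −log10 q-value belong to the peak, with −log10 q at 2.0 or above. The deposited score equals 10 times the −log10 q-value cut to a whole number, and no result rests on it. Peaks were called per sample. With depth unknown, precision is limited by the number of peaks.

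Genes came from RefSeq's table of WBcel235, whose coordinates are not printed. To check that lists and table share a frame, genes were shifted in steps of 10 bp, and the share of summits outside genes peaked at shifts of −20 to 20 bp. Printed coordinates are 1-based, from the deposited lists. Mitochondrial peaks were left out of ranks. A gene's best peak is its gene-end peak of highest fold. Summits up to 200 bp apart were grouped as 1 position. The binding rule was checked on invented genes with known answers. The planned search for promoter motifs and the 5′-end alternative were not run, as neither sequence nor strand was used here. Alternatives were other windows, peak thresholds and overlaps.

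The members, gene lists and comparisons were chosen with earlier results of these data known. Named genes are up to 10 bound members of highest fold per list, up to 8 members bound in 1 list of a pair, the main HSP genes and the hsp-12 and hsp-16 genes whether bound or not, members bound in 6 or more lists, the 2 on each side of the limit, and up to 4 genes per pathway list. crt-1, ire-1, atf-6, dnj-8, dnj-9, the peaks inside dnj-20, hsp-43, hsb-1, ddl-1, ddl-2, hpk-1 and hsf-1 were named after their values were seen. So were the peaks inside hsp-1 and hsp-90 and those beyond the limit at dnj-1, dnj-7, dnj-11, dnj-17 and dnj-24. The comparison of genes of like fold was added after the values were seen. Analyses used Python 3.11.15, numpy 2.4.6, pandas 2.3.3 and matplotlib 3.10.9.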

Additional observations from a re-analysis of the deposited data

How the results depend on the processing

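Of the alternative counts over members, all genes, pathway genes and pairs of lists, 137 stayed within 1.5 times the main count and 46 moved, and of those for single members 235 stayed and 35 moved. The 46 were as follows, and the cause was not tested beyond the use of fewer peaks or another window. With each list held to its 2000 peaks of highest fold, bound members numbered 7 in replicate 1, 6 with mIgG1, 7 for CEH-60 in DLS396, 6 in replicate 2, 5 in OP201 and 4 in DLS422. Over all genes the same counts were 1262, 1172, 1242, 1247, 1466 and 1352, and over the 51 pathway genes 3, 4, 4, 2, 3 and 3. The share of members stayed above that of all genes in each list, from 7.41% against 6.77% in DLS422 to 13.0% against 6.22% in DLS396. Members bound in both lists of a pair then numbered 4 for the CEH-60 replicates, 6 for 3F10 and mIgG1, 6 for DLS395 and DLS396, 4 for OP201 and DLS422, and 5 for replicate 2 and OP201. Members bound in 1 list of a pair numbered 5, 1, 2, 1 and 1 in these pairs, 2 for CEH-60 and UNC-62 and 2 for replicate 2 and DLS435.

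With a window of 500 bp, bound members numbered 3 for UNC-62, 2 in DLS435 and 7 in OP201, and pathway genes 5 with mIgG1 and 1 in DLS435. The share of members was then 5.56% for UNC-62 (against 4.31% of all genes). In OP201 it was 13.0% against 12.5%, and so close to that of all genes. In DLS435 the share of members (3.70%) was below that of all genes (3.89%) at this window. In DLS422 it was below with −log10 q of 5 or more (11.1% against 11.9%) and with any base of a peak counted (14.8% against 14.9%). Shared members numbered 3 for CEH-60 and UNC-62, 4 for OP201 and DLS422 and 2 for replicate 2 and DLS435, and 3 members were bound in 1 list of replicate 2 and OP201. dnj-22, bound in 8 lists, dnj-17, dnj-25, dnj-24, dnj-5 and hsp-25 were bound in 0 lists at 500 bp. With a window of 2000 bp UNC-62 bound 1865 genes of all. With −log10 q of 5 or more, 3 members were bound in 1 list of replicate 2 and DLS435. Where shared peaks had to overlap by 50% of both, members sharing a peak numbered 6 for 3F10 and mIgG1, 0 for CEH-60 and UNC-62, 2 for replicate 2 and DLS435, and 5 for replicate 2 and OP201. CEH-60 with 3F10 in DLS395 bound 20 members in either replicate, and 10 to 19 with 1 replicate left out, 10 without replicate 1.

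No paired analysis was possible because the results come from no test and the groups compared share fewer than 2 replicate numbers. The 5′-end alternative was not run, as strand was not used here. Read depth is unknown and the lists held 2048 to 9010 peaks, so a missing peak is not shown to be missing binding.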
